A study of Homo sapiens with 6 samples.

Results

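The G2/M and mitosis genes described here are 34 named genes that drive or carry out cell division, found by RefSeq symbol from the Entrez ID among the 40448 gene IDs of each deposited table. All 34 were found and all 34 lay above 0 in every library, so a filter on low values removed none. They were followed in clones of KYSE150, a human cell line from squamous carcinoma of the oesophagus. Clones 1, 6 and 17 were stable transfectants of an expression vector for human NCCRP1, whose protein carries an F-box-associated domain. Their controls, called mock, were clones 1, 4 and 5, which carried the pIRES2-EGFP vector, so both groups went through stable transfection and cloning. The labels do not name the promoter that drives NCCRP1. Each clone is 1 line with 1 library, so a p-value here rests on the spread over 6 libraries, and whether the clones came from separate transfections is not given. Where 3 values are listed for a group, they stand in the order of clones 1, 6 and 17 for NCCRP1 and of clones 1, 4 and 5 for mock.

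Entry into mitosis is driven by cyclin B bound to the kinase CDK1, and its exit by the anaphase-promoting complex, a ubiquitin ligase that marks cyclins for destruction. Most genes of this programme are silent in resting cells and peak together late in the cell cycle. Their promoters are held off by the DREAM complex and later turned on by B-MYB and FOXM1, all of which work through the MuvB core that binds a short element called the cell cycle homology region, often near CCAAT boxes bound by NF-Y. In bulk RNA, a smaller share of dividing cells and less RNA per dividing cell cannot be told apart.

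RNA depleted of ribosomal RNA was read on the Ion Torrent platform, and values are log2 RPKM, the log2 of reads per kilobase of exon scaled to library size. The libraries held 12477 to 12821 genes above 0 at an estimated 14580000 to 18070000 reads in the NCCRP1 clones and 12300000 to 15950000 in the mock clones, and they correlated across genes with r between 0.971 and 0.990. The transfected gene NCCRP1 stood at 6.19, 8.07 and 6.71 in its own clones and was listed at 0 in every mock clone. NCCRP1 clone 1 and mock clones 1 and 4 were read in sequencing run 15, and NCCRP1 clones 6 and 17 and mock clone 5 in run 14. Of 10 squamous markers all 10 were detected, and SOX2 was listed at 0 in NCCRP1 clone 6. Of these markers 1 had a higher mean in NCCRP1 clones and 9 a lower one, with a median log2 difference of -0.49. By limma 3 were at an unadjusted p under 0.05 while none passed. Across all tested genes, 46.7% lay higher in the NCCRP1 group by mean, the median difference was -0.02, and 7.33% reached that unadjusted p. KRT14, a basal keratin, was at 2.23, 1.89 and 1.11 in the NCCRP1 clones, against 4.22, 3.71 and 1.995 in the mock clones. The 9 markers above 0 in every library averaged 0.01, -0.34 and -0.59 from the gene mean in the NCCRP1 clones, against 0.43, 0.26 and 0.23 in the mock clones. The sum over the markers, to which KRT5 at 9.54 to 10.86 in the NCCRP1 clones and 9.95 to 10.36 in the mock clones gave most, was 1251 to 2487 RPKM in the NCCRP1 clones and 1878 to 2299 in the mock clones. The part of this marker difference in the results on mitosis genes was not tested. All 6 leukocyte markers and 5 of 6 fibroblast markers were listed at 0 in every library, COL1A1 being at 1.32 to 2.49 in the NCCRP1 clones and 1.81 to 2.57 in the mock clones. Of the 5 endothelial markers 4 were listed at 0 throughout, and CDH5 was at 0.66 in NCCRP1 clone 6 only.

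The promoters of 6 of the genes are shown, 5 with a match to the cell cycle homology region within 50 bases after the start or 250 before it, and 1 without. They are the 250 bases before the transcription start, from RefSeq on GRCh38.p14, 5′ to 3′, with matches to the cell cycle homology region (TTTGAA, its reverse complement TTCAAA, or TTCGAA) and to the CCAAT box (CCAAT or its reverse complement ATTGG) in capitals. CDC20, CENPF, TOP2A and ANLN had the highest mean level among genes with such a match, and CCNB1 and CDC25C are added as the cyclin and the phosphatase of mitotic entry.
CDC20, chr1:43358731-43358980, plus strand: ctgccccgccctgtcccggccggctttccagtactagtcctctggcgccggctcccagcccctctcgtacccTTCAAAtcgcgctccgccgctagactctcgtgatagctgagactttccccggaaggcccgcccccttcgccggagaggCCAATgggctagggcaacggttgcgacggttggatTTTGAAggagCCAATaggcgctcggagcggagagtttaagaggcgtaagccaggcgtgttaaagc
CENPF, chr1:214602945-214603194, plus strand: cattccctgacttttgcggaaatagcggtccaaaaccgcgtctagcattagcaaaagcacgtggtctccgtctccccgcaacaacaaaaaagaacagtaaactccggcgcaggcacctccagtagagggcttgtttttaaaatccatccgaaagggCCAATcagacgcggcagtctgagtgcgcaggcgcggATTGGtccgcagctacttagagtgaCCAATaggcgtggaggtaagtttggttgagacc
TOP2A, chr17:40417897-40418146, minus strand: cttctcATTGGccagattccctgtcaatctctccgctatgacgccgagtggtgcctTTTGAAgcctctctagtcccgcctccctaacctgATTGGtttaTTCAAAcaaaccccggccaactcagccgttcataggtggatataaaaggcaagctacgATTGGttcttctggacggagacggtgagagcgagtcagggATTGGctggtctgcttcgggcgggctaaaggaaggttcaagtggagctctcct
ANLN, chr7:36389612-36389861, plus strand: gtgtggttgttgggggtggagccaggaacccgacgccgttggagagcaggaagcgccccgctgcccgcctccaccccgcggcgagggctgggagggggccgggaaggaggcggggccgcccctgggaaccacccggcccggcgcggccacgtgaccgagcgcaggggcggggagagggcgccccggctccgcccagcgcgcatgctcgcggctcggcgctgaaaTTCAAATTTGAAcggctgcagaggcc
CCNB1, chr5:69166900-69167149, plus strand: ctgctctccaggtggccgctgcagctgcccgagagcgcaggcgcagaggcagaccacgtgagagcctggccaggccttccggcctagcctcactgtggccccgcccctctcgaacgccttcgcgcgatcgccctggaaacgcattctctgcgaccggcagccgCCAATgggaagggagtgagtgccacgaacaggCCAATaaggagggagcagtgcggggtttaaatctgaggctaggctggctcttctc
CDC25C, chr5:138331805-138332054, minus strand: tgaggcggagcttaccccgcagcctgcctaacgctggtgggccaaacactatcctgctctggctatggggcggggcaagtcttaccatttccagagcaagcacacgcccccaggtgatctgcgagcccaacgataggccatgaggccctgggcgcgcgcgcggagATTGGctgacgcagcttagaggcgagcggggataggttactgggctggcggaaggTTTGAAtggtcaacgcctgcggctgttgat
In CDC25C, at 1 of its 4 annotated starts, a TTTGAA began at -30 and a CCAAT box at -85, counted from the start. ANLN had its pair of matches side by side, at -26 and -20, and no CCAAT box. CENPF had CCAAT boxes at -94, -58 and -33, and its cell cycle homology match lay at 41, past the start and outside the stretch shown. CCNB1 had CCAAT boxes at -87 and -55 and no match to these letters of the other motif.

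Promoters of 250 bases before and 50 bases after the start were found for 29 of the 34 genes. On either strand, and with overlapping matches each counted, 23 of the 29 genes (79.3%) held a cell cycle homology motif at 1 start or more, against 14.7% of the 9703 tested genes with a promoter and 19.5% of the 27305 genes of the whole table. CCAAT boxes were found in 24 of the 29 (82.8%), against 43.3% of tested genes and 39.7% of all genes. Both motifs were held by 20 of the 29 (69.0%), against 6.45% of tested genes and 7.85% of all genes. Within 60 bases before the start, 15 of the 29 genes had a cell cycle homology match, against 2.97% of tested genes. Per promoter, 26 of 35 (74.3%) held that motif, against 16.4% of all 35116 promoters. A match is a description of these letters and not a shown binding site.

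**Figure D1:**
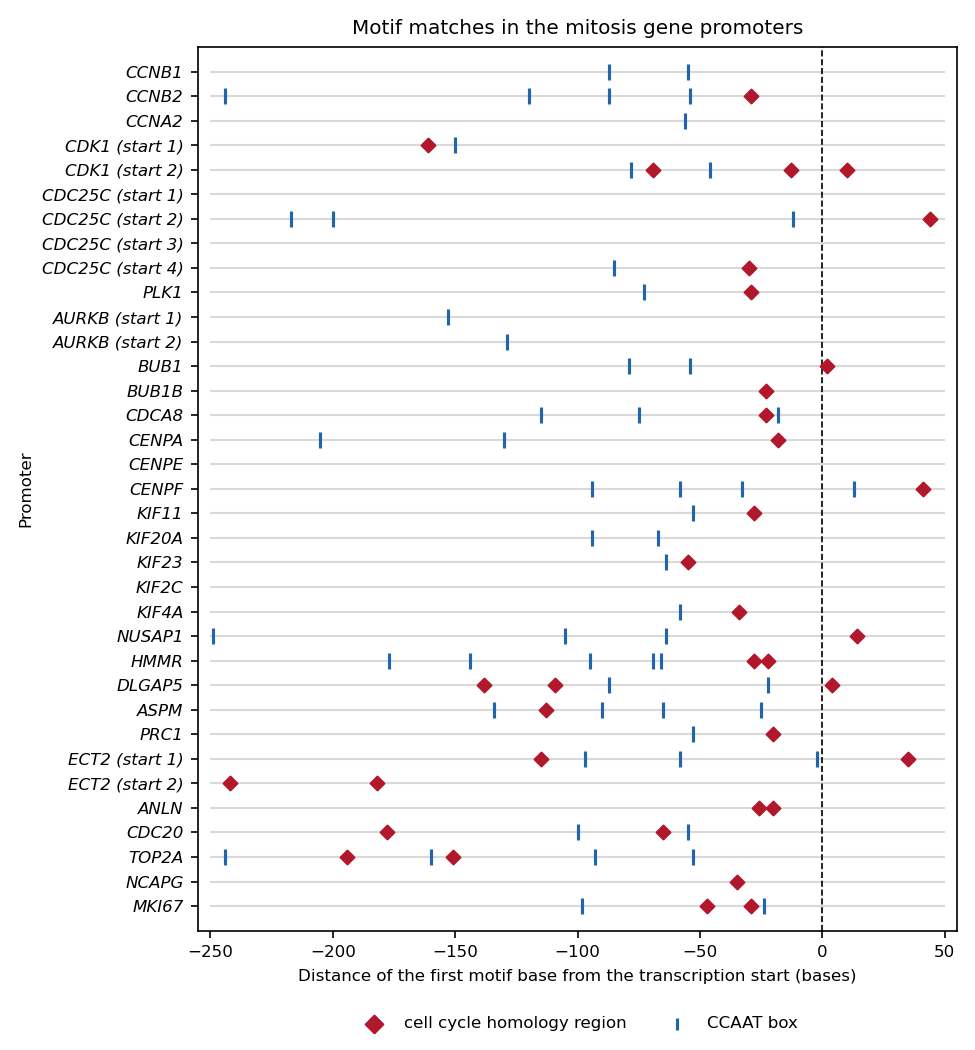
Matches to the cell cycle homology region (diamonds) and the CCAAT box (bars) in 35 promoters of 29 mitosis genes, plotted by distance in bases from the transcription start (dashed line). In 15 genes a diamond lies within 60 bases before the start.

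Across the genes, the level per length ran from a mean over the 6 clones of log2 RPKM 1.26 for CENPE, the kinesin-like motor that carries chromosomes to the spindle equator, to 6.54 for AURKB, the kinase of the chromosomal passenger complex. BIRC5 (survivin, a passenger subunit, mean 6.28), TPX2 (a spindle assembly factor that activates Aurora A, 6.26), CDC20 (the activator of the anaphase-promoting complex, 5.96) and CCNB1 (cyclin B1, 5.94) followed AURKB. At the low end stood ASPM, a spindle pole protein (2.49), KIF11, the motor that separates the poles (2.98), and TTK, the kinase at the head of the spindle checkpoint (3.08). With the estimated depths and the longest annotated transcripts, the fewest reads behind a value were about 186, for CENPA, and the median gene's lowest library held about 624.5. Counting error alone then comes to at most 0.106 on the log2 scale.

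**Figure D2:**
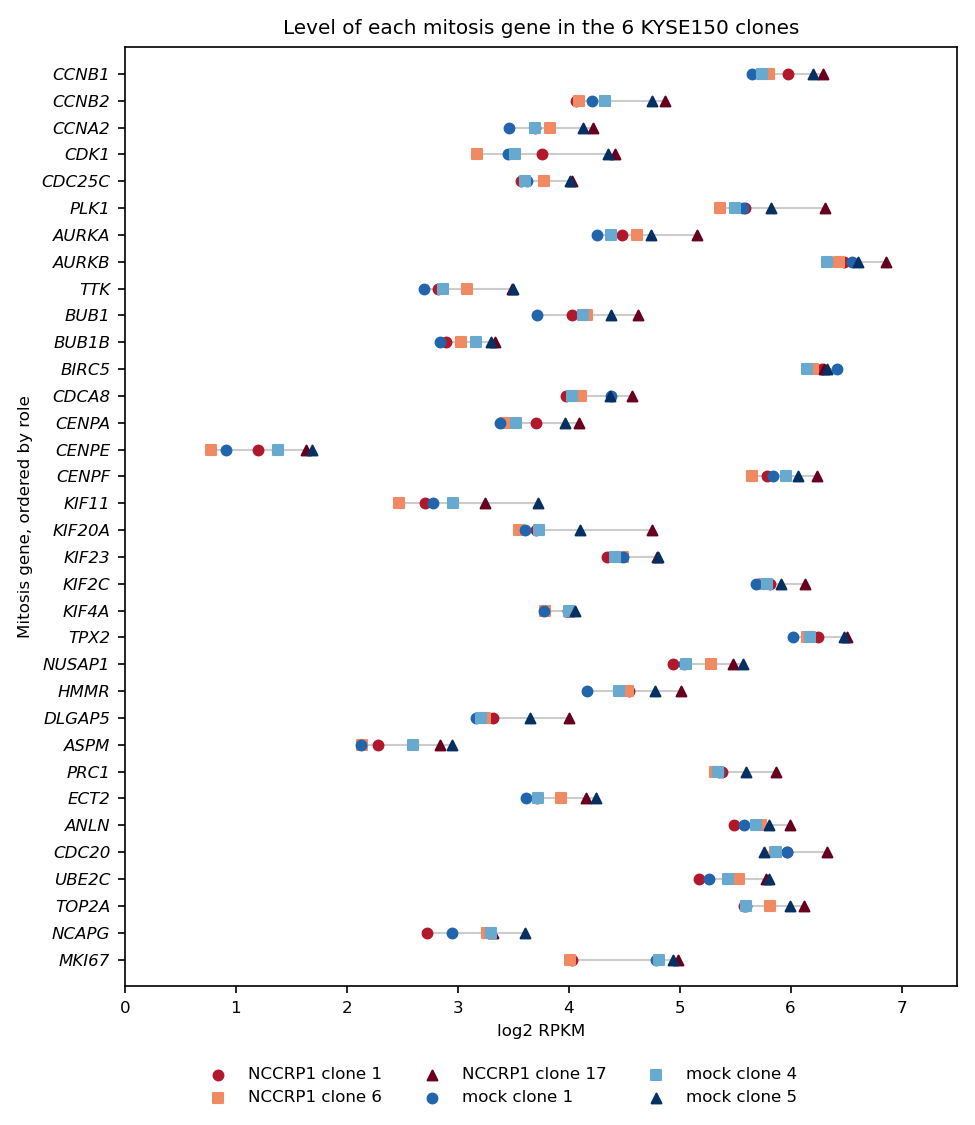
Level of the 34 mitosis genes in log2 RPKM (horizontal axis) in NCCRP1 clones 1, 6 and 17 (reds) and mock clones 1, 4 and 5 (blues), 1 point per library, with grey lines spanning the 6 clones. The reds and the blues overlap for all 34 genes, and mean levels run from 1.26 for CENPE to 6.54 for AURKB.

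Between NCCRP1 and mock clones, no mitosis gene passed the test in either direction. By limma, with Benjamini-Hochberg adjustment over all 12737 tested genes and a threshold of 0.05, 0 of 34 were higher, where 0.0707% of all tested genes were, and 0 of 34 were lower, where 0.0314% were. Their adjusted p ran from 0.688 to 0.998. At an unadjusted p under 0.05 there were also 0 of 34, against 7.33% of all tested genes. With run as a further term there were 2, MKI67 (unadjusted p = 0.0430, adjusted p = 0.497 by limma) and NCAPG (0.0460 and 0.508). All 12737 tested genes held 1231 such genes in that fit. Without NCCRP1 clone 17 there was 1 of the 34, MKI67 (0.000312 and 0.176), beside 939 of all 12737. NCCRP1 and mock libraries overlapped for all 34, whereas 12.8% of all tested genes had groups that did not overlap. The mean was higher in the NCCRP1 clones for 21 genes and lower for 13, so 21 of 34 were higher beside 46.7% of all tested genes. The median log2 difference was 0.06, beside -0.02 over all tested genes, and every one of the 34 differences was smaller than the larger SD of the 2 groups. For 33 of the 34 the 95% interval of the difference lay within 1 on the log2 scale either way, with a median half-width of 0.42, which is the precision that 3 clones a group gave.

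**Figure D3:**
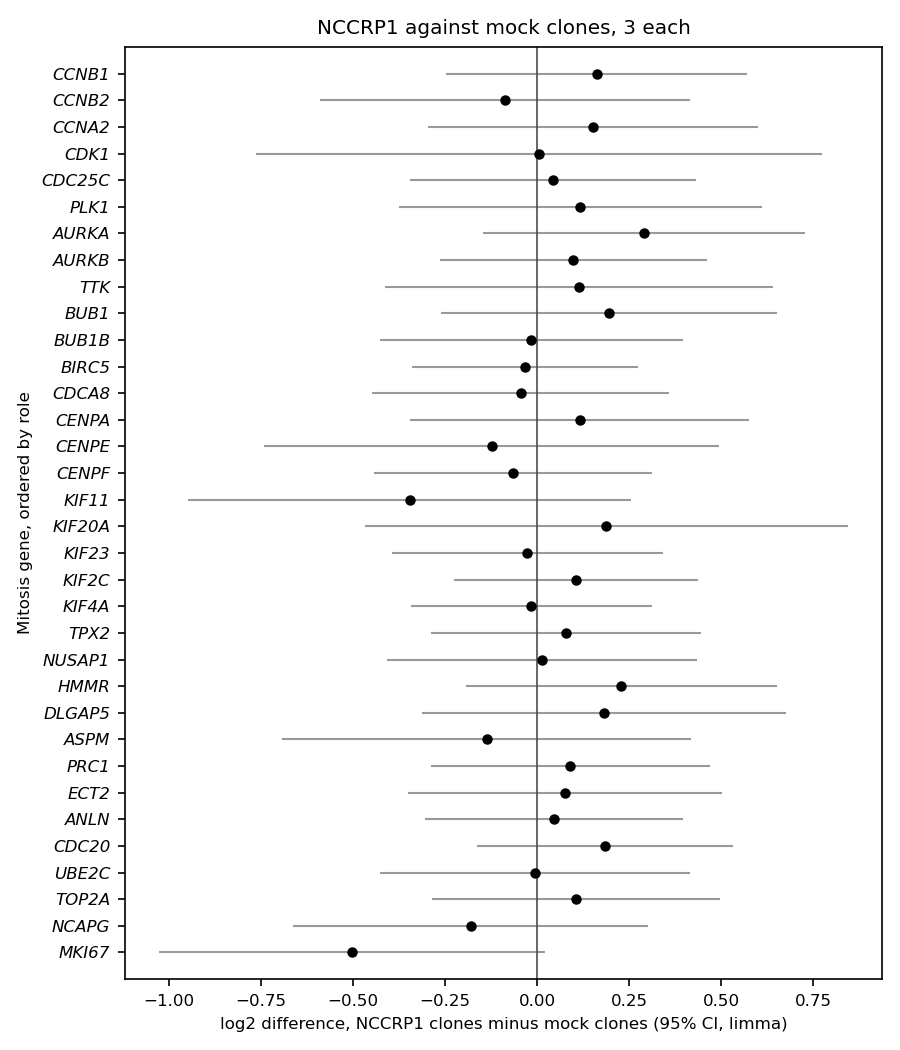
Fitted log2 difference of each mitosis gene, NCCRP1 clones minus mock clones (3 each), with its 95% confidence interval from limma. All 34 intervals include 0, and MKI67 and KIF11 have the lowest estimates.

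For regulators of mitotic entry the group means differed by less than the spread between clones. CCNB1 was at 5.97, 5.81 and 6.29 in the NCCRP1 clones, against 5.65, 5.74 and 6.20 in the mock clones. CCNB2, the second B-type cyclin, was at 4.07, 4.09 and 4.87 in the NCCRP1 clones, against 4.21, 4.33 and 4.75 in the mock clones. In both cyclins clone 17 of the NCCRP1 group and clone 5 of the mock group stood above the other 4 libraries. CCNA2, the cyclin of S phase and G2, was at 3.69, 3.83 and 4.22 in the NCCRP1 clones, against 3.46, 3.69 and 4.13 in the mock clones. CDK1, the catalytic partner of these cyclins, was at 3.76, 3.17 and 4.42 in the NCCRP1 clones, against 3.45, 3.51 and 4.36 in the mock clones. Its highest value was 2.37 times its lowest in RPKM, while the group means were 3.78 ± 0.62 in NCCRP1 and 3.77 ± 0.51 in mock clones (SD, n = 3 each). NCCRP1 clone 17 and mock clone 5 were its highest libraries and NCCRP1 clone 6 its lowest. CDC25C, which activates CDK1, was at 3.57, 3.78 and 4.03 in the NCCRP1 clones, against 3.63, 3.60 and 4.01 in the mock clones. PLK1, the polo-like kinase that promotes entry and spindle assembly, was at 5.59, 5.36 and 6.31 in the NCCRP1 clones, against 5.58, 5.50 and 5.83 in the mock clones. For PLK1 clone 17 stood alone, 0.48 above mock clone 5, on the log2 scale.

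In the kinase and checkpoint genes, NCCRP1 clone 17 and mock clone 5 were again the highest pair. AURKA, the kinase of spindle poles, was at 4.48, 4.62 and 5.15 in the NCCRP1 clones, against 4.26, 4.38 and 4.74 in the mock clones. It had the highest difference of the 34 genes, a log2 of 0.29 (SE 0.20, 95% interval -0.15 to 0.73, limma adjusted p = 0.852), which was 0.09 without NCCRP1 clone 17 and 0.19 without mock clone 1. AURKB was at 6.48, 6.43 and 6.86 in the NCCRP1 clones, against 6.55, 6.32 and 6.61 in the mock clones. TTK was at 2.82, 3.08 and 3.49 in the NCCRP1 clones, against 2.70, 2.86 and 3.50 in the mock clones. Clone 17 and mock clone 5 were thus nearly level for TTK and apart for both Aurora kinases. BUB1, a checkpoint kinase of the kinetochore, was at 4.03, 4.16 and 4.62 in the NCCRP1 clones, against 3.71, 4.13 and 4.38 in the mock clones. Its partner BUB1B (BubR1) was at 2.89, 3.03 and 3.34 in the NCCRP1 clones, against 2.84, 3.17 and 3.30 in the mock clones.

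Passenger and centromere genes included the flattest of the 34. BIRC5 had the narrowest range of the 34, 0.27 on the log2 scale, at 6.28, 6.21 and 6.30 in the NCCRP1 clones and 6.41, 6.14 and 6.33 in the mock clones. It was also the only mitosis gene with its highest value in mock clone 1. CDCA8 (borealin), its partner in the passenger complex, was at 3.97, 4.11 and 4.57 in the NCCRP1 clones, against 4.38, 4.03 and 4.37 in the mock clones. It was high in mock clone 1 as well. CENPA, the histone H3 variant of centromeres, was at 3.70, 3.43 and 4.09 in the NCCRP1 clones, against 3.38, 3.53 and 3.97 in the mock clones. CENPE was at 1.20, 0.78 and 1.63 in the NCCRP1 clones, against 0.91, 1.38 and 1.68 in the mock clones. CENPF, a large kinetochore and nuclear matrix protein, was at 5.78, 5.66 and 6.24 in the NCCRP1 clones, against 5.84, 5.96 and 6.07 in the mock clones. In the 3 centromere genes NCCRP1 clone 6 was low, averaging -0.34 from the gene mean, while clone 17 averaged 0.36.

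Among the kinesins, KIF20A (MKLP2), which works at the midzone, had the highest single deviation. It was at 3.70, 3.55 and 4.75 in the NCCRP1 clones, against 3.61, 3.73 and 4.10 in the mock clones, so clone 17 was 2.29 times clone 6 in RPKM. KIF11 had the widest range of the 34, 1.26 on the log2 scale, at 2.70, 2.47 and 3.25 in the NCCRP1 clones and 2.78, 2.96 and 3.73 in the mock clones. Its difference was -0.35 (SE 0.27, 95% interval -0.95 to 0.26, limma adjusted p = 0.880), and mock clone 5 was its highest library. The difference was -0.06 without mock clone 5, -0.18 without NCCRP1 clone 6 and -0.57 without NCCRP1 clone 17. KIF23 (MKLP1) averaged 4.54 ± 0.23 in NCCRP1 and 4.57 ± 0.21 in mock clones (SD, n = 3 each). KIF2C (MCAK), which depolymerises microtubule ends, averaged 5.90 ± 0.20 in NCCRP1 and 5.80 ± 0.11 in mock clones. KIF4A, a chromosome-bound motor, varied little, at 3.93 ± 0.12 in NCCRP1 and 3.95 ± 0.15 in mock clones.

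Spindle assembly and cytokinesis genes were also within the spread of the clones. HMMR, a spindle-associated hyaluronan receptor, was at 4.55, 4.53 and 5.01 in the NCCRP1 clones, against 4.17, 4.45 and 4.78 in the mock clones (log2 difference 0.23, SE 0.19, limma adjusted p = 0.897). That difference was 0.07 without NCCRP1 clone 17, 0.08 without mock clone 1 and 0.38 without mock clone 5. DLGAP5 (HURP), which stabilises kinetochore fibres, was at 3.32, 3.25 and 4.00 in the NCCRP1 clones, against 3.16, 3.21 and 3.65 in the mock clones. Both had clone 17 first and mock clone 5 second. TPX2 averaged 6.30 ± 0.18 in NCCRP1 and 6.22 ± 0.23 in mock clones (SD, n = 3 each). NUSAP1, a microtubule-binding spindle protein, averaged 5.23 ± 0.28 in NCCRP1 and 5.22 ± 0.30 in mock clones, and ASPM averaged 2.42 ± 0.37 in NCCRP1 and 2.56 ± 0.41 in mock clones. For these 3 genes too the groups overlapped. PRC1, which bundles midzone microtubules, was at 5.38, 5.32 and 5.87 in the NCCRP1 clones, against 5.36, 5.35 and 5.60 in the mock clones. ECT2, the exchange factor that activates RhoA for the cleavage furrow, averaged 3.94 ± 0.22 in NCCRP1 and 3.86 ± 0.34 in mock clones. ANLN (anillin), a scaffold of the contractile ring, averaged 5.74 ± 0.25 in NCCRP1 and 5.69 ± 0.11 in mock clones.

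Of the 2 genes of the anaphase-promoting complex, CDC20 departed from the common order. It was at 5.97, 5.86 and 6.33 in the NCCRP1 clones, against 5.97, 5.87 and 5.76 in the mock clones, and was the only mitosis gene with its lowest value in mock clone 5. Its highest library was NCCRP1 clone 17, and the other 5 lay close together. UBE2C, the ubiquitin-conjugating enzyme of the complex, was at 5.18, 5.54 and 5.78 in the NCCRP1 clones, against 5.26, 5.44 and 5.81 in the mock clones. TOP2A, which decatenates sister chromatids, was at 5.58, 5.82 and 6.12 in the NCCRP1 clones, against 5.60, 5.60 and 5.99 in the mock clones. NCAPG, a condensin subunit, was at 2.73, 3.27 and 3.32 in the NCCRP1 clones, against 2.95, 3.30 and 3.61 in the mock clones. For NCAPG clone 1 was the lowest NCCRP1 library.

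MKI67, which encodes the proliferation marker Ki-67 that coats mitotic chromosomes, had the lowest difference and the lowest p of the 34 genes. It was at 4.03, 4.01 and 4.98 in the NCCRP1 clones, against 4.79, 4.81 and 4.94 in the mock clones. Clones 1 and 6 were below all mock clones and clone 17 was above them. The log2 difference was -0.50 (SE 0.24, 95% interval -1.03 to 0.02, limma unadjusted p = 0.0579, adjusted p = 0.688). It was -0.35 without NCCRP1 clone 1, -0.34 without NCCRP1 clone 6 and -0.82 without NCCRP1 clone 17. The last had an adjusted p of 0.176 by limma, the lowest of a range that ran up to 1.00 over the settings tried.

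The 34 genes varied together between clones of the same group. Relative to each gene's mean over the 6 libraries, the 34 genes averaged -0.16, -0.15 and 0.36 in the NCCRP1 clones, against -0.20, -0.09 and 0.25 in the mock clones. All 11927 genes above 0 in every library averaged -0.04, -0.01 and 0.03 in the NCCRP1 clones, against -0.03, 0.01 and 0.04 in the mock clones. In NCCRP1 clone 17 all 34 genes were above their own mean, and in NCCRP1 clones 1 and 6 there were 5 and 9. In mock clone 5 there were 33 above it, and in mock clones 1 and 4 there were 5 and 7. The share of all genes above their own mean in each clone was not counted. Clone 17 was the highest of the 6 libraries for 23 of 34 genes, beside 17.2% of the 11927 genes above 0 in every library. Mock clone 5 was the highest for 10 of 34, beside 29.7% of those genes. Together they were the 2 highest libraries for 31 of 34, beside 12.3%. NCCRP1 clone 6 was the lowest for 8 of 34 (15.6% of all) and mock clone 1 for 14 of 34 (21.4% of all). These counts describe 1 library per clone and carry no test.

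**Figure D4:**
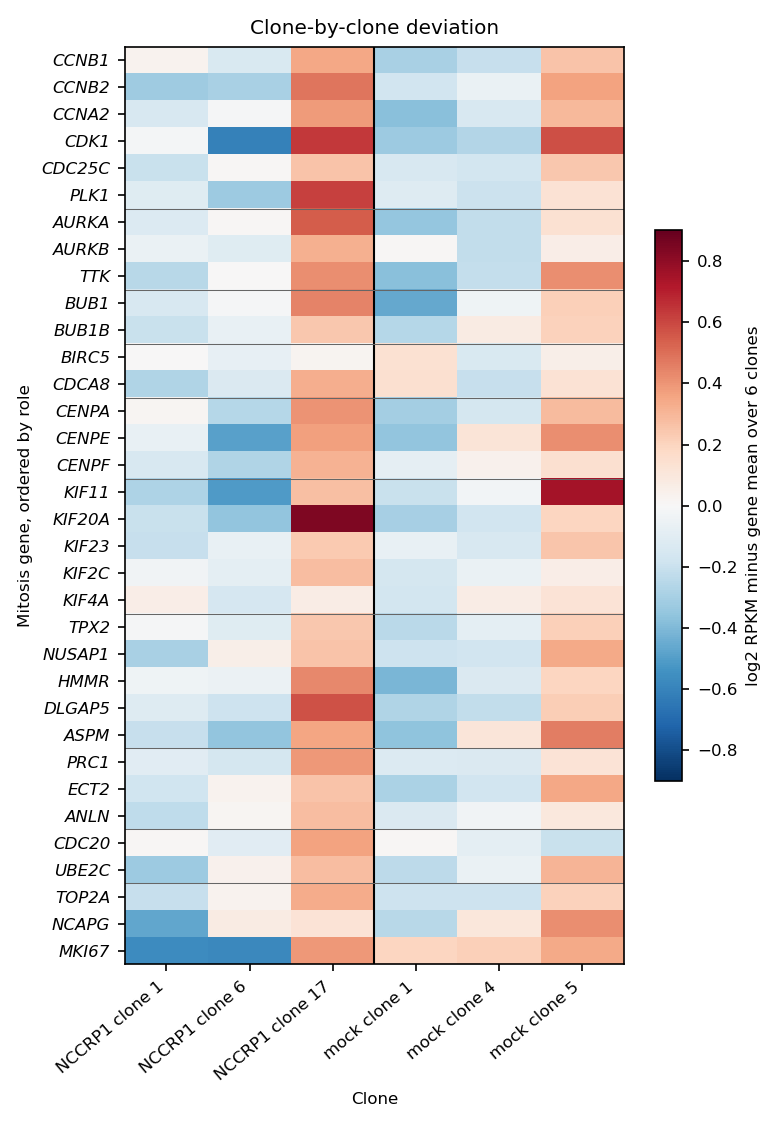
Deviation of each mitosis gene from its own mean over the 6 clones, in log2 RPKM (colour scale, red above and blue below), with NCCRP1 clones 1, 6 and 17 left of the black line and mock clones 1, 4 and 5 right of it. Thin lines separate the roles. The column of NCCRP1 clone 17 is above the mean for all 34 genes and that of mock clone 5 for 33. The same share over all genes was not counted.

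Pairs of clones were compared on these same values, as log2 differences. NCCRP1 clone 17 exceeded NCCRP1 clone 6 in 34 of 34 genes, by a median log2 of 0.46 or 1.37-fold, while over all genes the median was 0.01 and 51.4% were higher. It exceeded NCCRP1 clone 1 in 34 of 34 as well, by a median of 0.52, beside 55.4% and 0.05 over all genes. NCCRP1 clone 17 and mock clone 5 differed by a median of 0.09, with 23 genes higher in clone 17 and 11 lower. Over all genes that median was -0.03, and 47.2% were higher in clone 17. NCCRP1 clone 6 was below mock clone 5 in 33 of 34 genes, by a median of -0.31. Over all genes that median was -0.06, and 43.4% were higher in clone 6. Among mock clones, clone 5 exceeded clone 1 in 31 of 34, by a median of 0.49, beside 55.5% and 0.07 over all genes.

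The same values were set beside sequencing run and base composition. In run 14 the 34 genes averaged -0.15 in NCCRP1 clone 6, 0.36 in NCCRP1 clone 17 and 0.25 in mock clone 5. In run 15 they averaged -0.16 in NCCRP1 clone 1 and -0.20 and -0.09 in mock clones 1 and 4. The part of the run in the pattern was not tested. Within run 15, NCCRP1 clone 1 minus the mean of mock clones 1 and 4 had a median of 0.04, with 20 of 34 genes higher. Within run 14, the mean of NCCRP1 clones 6 and 17 minus mock clone 5 had a median of -0.12, with 8 of 34 higher. Over all genes above 0 in every library these medians were -0.01 in run 15 and -0.04 in run 14. With run as a term in limma, the median difference of the 34 genes was -0.04, beside -0.03 over all tested genes, and none passed. In that fit 14 of the 34 differences were above 0 and 20 below. Transcripts of the mitosis genes had a median GC content of 43.2%, beside 49.3% for tested genes. With each library's GC trend removed, the mean deviation of NCCRP1 clone 17 was 0.33 and that of mock clone 5 was 0.11, against 0.36 and 0.25 before. Clone 17 was then the highest library for 29 of 34 genes and mock clone 5 for 2. NCCRP1 clones 1 and 6 were then at -0.11 and -0.17, and mock clones 1 and 4 at -0.10 and -0.06.

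Of the 34 genes, 3 lie on chromosome 10, namely CDK1, KIF11 and MKI67, and all 3 were low in NCCRP1 clone 6. They were picked out after their values were seen, and the part of the chromosome in the group difference was not tested. Clone 6 minus the mean of the other 5 libraries was -0.73 for CDK1, -0.61 for KIF11 and -0.70 for MKI67, which was also low in NCCRP1 clone 1. Over the 435 chromosome 10 genes above 0 in every library the same measure had a median of -0.43, and 352 of them were below 0. Over the 11492 genes of other chromosomes its median was 0.01, and 5537 of them were below 0. The 31 mitosis genes on other chromosomes had a median of -0.11, with 22 below 0. KIF20B, a further mitotic kinesin gene on chromosome 10, chosen after seeing the data, was at 0.90, 0.41 and 1.49 in the NCCRP1 clones, against 0.90, 0.70 and 1.02 in the mock clones. Without these 3 genes the mean deviations of the other 31 genes were -0.15, -0.11 and 0.35 in the NCCRP1 clones, against -0.20, -0.10 and 0.22 in the mock clones.

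Other genes of mitosis were read from 5 lists of further genes, and none of their members passed in either direction. The counts of higher and lower means stand beside 46.7% of all tested genes with a higher mean in NCCRP1 clones. Kinetochore and checkpoint genes (25 tested) had a median log2 difference of -0.05, with 10 higher and 15 lower. ZWINT, a kinetochore protein also on chromosome 10, had the lowest p of this list, at 5.82 ± 0.04 in NCCRP1 and 6.15 ± 0.12 in mock clones (SD, n = 3 each; limma adjusted p = 0.609), followed by SPC24 of the NDC80 complex with a difference of -0.27 that was -0.05 without mock clone 5. Condensin and cohesin genes (18 tested) had a median of -0.08, with 13 lower, STAG1 and SMC3 being at -0.33 and -0.31. STAG1 was at -0.22 without NCCRP1 clone 1, and SMC3 at -0.18 without NCCRP1 clone 6. Subunits and regulators of the anaphase-promoting complex (17 tested) had a median of -0.0041, with 8 higher and 9 lower. FZR1, its activator in late mitosis and G1, was at 4.57 ± 0.14 in NCCRP1 and 4.11 ± 0.26 in mock clones (limma adjusted p = 0.520), and the small subunit gene ANAPC13 had a difference of 0.36. Kinases and phosphatases of mitotic entry (15 tested) had a median of -0.09, with BORA, an activator of Aurora A and PLK1, at -0.53 and CDC25A at -0.31. BORA was at -0.25 without mock clone 5, and CDC25A at -0.10 without NCCRP1 clone 17 and -0.53 without NCCRP1 clone 6. Other spindle, kinesin and cytokinesis genes (25 tested) had a median of -0.0046, with 12 higher and 13 lower. KIF18B and KIF15 had differences of -0.28 and -0.22, and KIF15 was at -0.11 without mock clone 5.

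Regulators of mitotic gene transcription mostly had lower means in NCCRP1 clones, and none passed. Of 19 tested, among them FOXM1 and genes of the MuvB and E2F families, the NCCRP1 mean was higher for 3 and lower for 16. Of all tested genes, 46.7% had a higher mean. The median difference of the regulators was -0.13, beside -0.02 over all tested genes. TFDP1, the partner of E2F proteins, was at 5.11 ± 0.25 in NCCRP1 and 5.66 ± 0.08 in mock clones (SD, n = 3 each; limma adjusted p = 0.352). E2F4, a DREAM subunit, was at 7.08 ± 0.31 in NCCRP1 and 7.63 ± 0.09 in mock clones (limma adjusted p = 0.457). Among 11 tested brakes on G2, GADD45B rose in the NCCRP1 clones, the only list member that passed. This inhibitor of CDK1 and cyclin B1 was at 5.71, 5.99 and 5.98 in the NCCRP1 clones, against 4.47, 4.57 and 3.85 in the mock clones (log2 difference 1.59, SE 0.19, limma adjusted p = 0.0154). The NCCRP1 clones were all above the mock clones, but the call was lost in 6 of the 16 alternatives, among them run as a further term (adjusted p = 0.0595) and leaving out NCCRP1 clone 6 (0.0701), NCCRP1 clone 17 (0.105) or mock clone 5 (0.0549), with an adjusted p of 0.00829 to 0.105 over all of them. GADD45A, of the same family, was at 4.74, 5.33 and 4.50 in the NCCRP1 clones, against 4.78, 4.61 and 4.06 in the mock clones, and the groups overlapped. Its difference was 0.37, and 0.13 without NCCRP1 clone 6 or 0.16 without mock clone 5. GADD45B and FZR1 lie on chromosome 19, as do SPC24 and the replication gene UHRF1, whose means were lower in NCCRP1 clones. TFDP1 and BORA lie on chromosome 13, E2F4 on chromosome 16 and SMC3 on chromosome 10. The part of chromosome position in these differences was not tested.

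Clone by clone, mock clone 5 was above the gene mean in each of the other lists except the G2 brakes. The place of NCCRP1 clone 17 differed between lists. Spindle, kinesin and cytokinesis genes averaged -0.17, -0.14 and 0.27 in the NCCRP1 clones, against -0.10, -0.04 and 0.18 in the mock clones. With the GC trend removed, clone 17 was at 0.24 and mock clone 5 at 0.07. Kinetochore genes had NCCRP1 clone 17 at 0.03 and mock clone 5 at 0.26, which became -0.00053 and 0.09 with the GC trend removed. Condensin and cohesin genes had NCCRP1 clone 17 at 0.06 and mock clone 5 at 0.18, or 0.03 and 0.05 without the GC trend. Mitotic entry kinases and phosphatases had them at 0.12 and 0.24, or 0.09 and 0.11 without that trend. Genes of the anaphase-promoting complex had NCCRP1 clone 17 at -0.0025 and mock clone 5 at 0.10, or -0.03 and -2.0e-06 without it. Regulators averaged -0.24, 0.03 and -0.10 in the NCCRP1 clones, against 0.04, 0.04 and 0.23 in the mock clones. Without the GC trend, regulators had NCCRP1 clone 17 at -0.13 and mock clone 5 at 0.16. The G2 brakes averaged 0.0044, 0.21 and 0.19 in the NCCRP1 clones, against -0.17, -0.09 and -0.14 in the mock clones. Genes of G1/S and DNA replication ran differently, at -0.24, 0.21 and -0.19 in the NCCRP1 clones, against 0.09, 0.02 and 0.11 in the mock clones. NCCRP1 clone 17 was thus above the gene mean for the mitosis genes and below it for replication genes, and NCCRP1 clone 6 the reverse. The 28 replication genes had a median difference of -0.15 between the groups and none passed, with the ubiquitin ligase UHRF1 at -0.63 and the cyclin D1 gene CCND1 at 0.59 having the lowest p. Without NCCRP1 clone 6 the difference of CCND1 was 0.38, and without NCCRP1 clone 17 that of UHRF1 was -0.42.

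**Figure D5:**
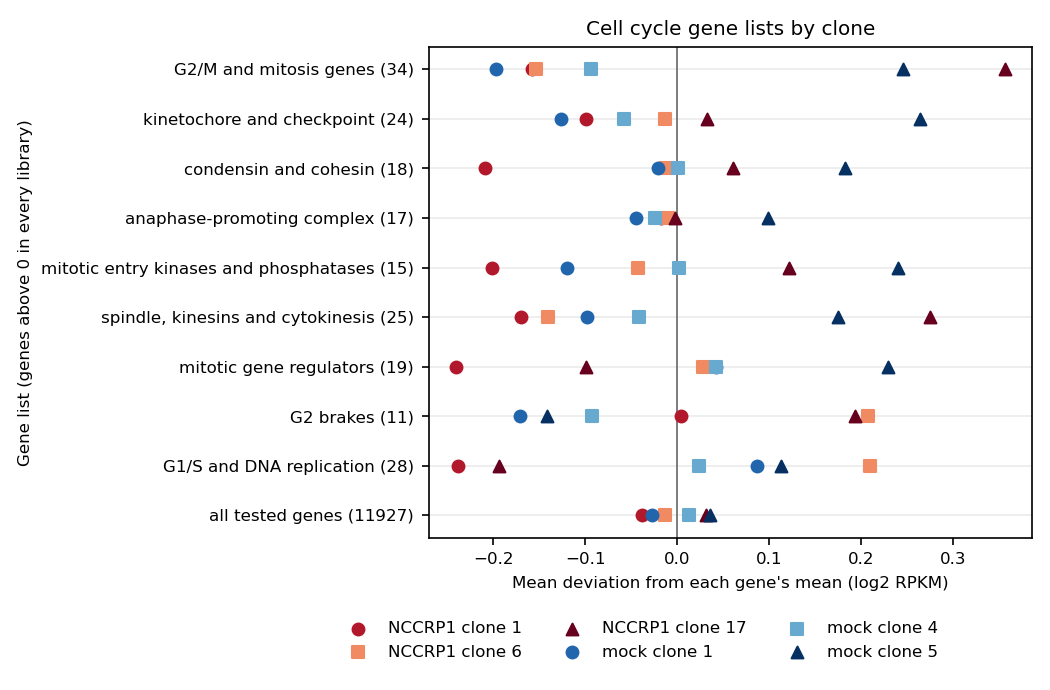
Mean deviation from each gene's own mean (horizontal axis, log2 RPKM) for cell cycle gene lists in NCCRP1 clones 1, 6 and 17 (reds) and mock clones 1, 4 and 5 (blues), with the number of genes above 0 in every library in brackets. NCCRP1 clone 17 lies at 0.36 for the G2/M and mitosis genes and at -0.19 for G1/S and DNA replication genes, while all tested genes lie within 0.04 of 0 in every clone.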

How the data were processed

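Per the labels' protocols, ribosomal RNA was removed from DNase-treated total RNA of 6 stable KYSE150 transfectants before Ion Torrent library preparation. The submitters' processing notes name the build hg19 and bedtools 2.25.0 and say nothing of what each was used for. The aligner and the strand setting are not given in the sources used here. The authors deposited 1 log2 RPKM value per Entrez gene ID and library, in a column that reads RPKM per the file headers. The log scale was inferred, because 2 to the power of the value, times transcript length in kilobases, summed to 1130000 to 1150000 per library, against at least 11550000 for natural logarithms. The lowest deposited value was 0, which stands for any level under 1 RPKM.

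Depth was estimated from microRNA genes, some of whose low values lie at whole-read steps. The best of the depths searched put 23.7% to 35.8% of the low values within 0.01 of a whole read. The next best separate depth put 10.3% to 16.6% there, and the median over the depths searched was 1.4% to 1.6%. Too few values were whole to recover counts.

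Genes above 0 in at least 3 of 6 libraries were compared with limma 3.58.1 in R 4.3.3 (trended, robust empirical Bayes, group as sole term, two-sided, Benjamini-Hochberg adjustment over all 12737 genes, threshold 0.05). The fitting code was run on simulated data with independent noise for each gene. How often it finds differences as small as those of the mitosis genes is not reported here. Symbols of 37997 gene IDs came from RefSeq on GRCh38.p14, and GC content and length from the longest GENCODE v29 transcript (97.6% of tested genes). The genes, lists and tests were chosen with earlier results of these data known. Named genes are all 34 members, those of other cell cycle lists that passed, the 2 with the lowest p in each list, and NCCRP1. KIF20B and the single cell type markers named were chosen after their values were seen. Of the 34 genes, 12 overlap exons of another gene, such as KIF20A with CDC23 and CCNA2 with EXOSC9, and 8 have a pseudogene of the same name, so their values may hold shared reads. Alternatives changed the filter, pseudocount, handling of a listed 0, library scaling, GC trend, variance model, run term and clones used.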

Additional observations from a re-analysis of the deposited data

How the results depend on the processing

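No paired analysis was made because the labels do not pair NCCRP1 clones with mock clones. Clone number 1 occurs in both groups, and a shared number is not a pairing. In each of the 16 alternatives planned, 0 of 34 mitosis genes passed. Over all tested genes 13 passed, against 3 with no filter, 4 with log2(RPKM + 1), 1 with log2(RPKM + 0.1), 2 with a listed 0 as missing, 4 with the GC trend removed, 5 with robust=FALSE and 2 with run as a term, and 0 to 29 with 1 clone left out. The 29 came without NCCRP1 clone 1 and the 0 without mock clone 5, with 1363 at an unadjusted p under 0.05. The median difference of the mitosis genes stayed within the spread between clones in all alternatives, between -0.08 without NCCRP1 clone 17 and 0.17 without mock clone 5, and was -0.01 without mock clone 1. With NCCRP1 clone 17 left out 29 of 34 genes had a lower mean, and with mock clone 5 left out 29 had a higher one. Over all tested genes the median difference was -0.03 without NCCRP1 clone 17 and 0.0023 without mock clone 5. Leaving out the chromosome 10 genes, a setting chosen after seeing the data, gave a median of 0.08.

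The sign of small differences changed with equal medians for UBE2C (0.0078), with quantile normalization for CDK1 (-0.0017), BUB1B (0.0036) and NUSAP1 (-0.0097), and with the run term for CDK1 (-0.15), CDC25C (-0.077), TTK (-0.083), NUSAP1 (-0.15), ECT2 (-0.075), ANLN (-0.045) and TOP2A (-0.024). With 1 clone left out, 27 genes changed sign, while CCNB1, AURKA, BUB1, KIF11, HMMR, CDC20 and MKI67 did not. The ranges that follow for the 34 genes cover only these fits with 1 clone left out. The ranges over all 34 were 0.0272 to 0.33 for CCNB1, -0.35 to 0.0714 for CCNB2, -0.00177 to 0.34 for CCNA2, -0.31 to 0.31 for CDK1, -0.0735 to 0.18 for CDC25C, -0.16 to 0.31 for PLK1, 0.0897 to 0.43 for AURKA, -0.0359 to 0.18 for AURKB, -0.0657 to 0.35 for TTK, 0.0122 to 0.35 for BUB1, -0.15 to 0.0833 for BUB1B, -0.11 to 0.0259 for BIRC5, -0.22 to 0.0793 for CDCA8, -0.0594 to 0.29 for CENPA, -0.34 to 0.0887 for CENPE, -0.24 to 0.0525 for CENPF, -0.57 to -0.0592 for KIF11, -0.18 to 0.41 for KIF20A, -0.15 to 0.0913 for KIF23, -0.00879 to 0.18 for KIF2C, -0.10 to 0.0551 for KIF4A, -0.0229 to 0.21 for TPX2, -0.11 to 0.19 for NUSAP1, 0.0717 to 0.38 for HMMR, -0.0584 to 0.34 for DLGAP5, -0.35 to 0.0587 for ASPM, -0.0831 to 0.19 for PRC1, -0.0476 to 0.27 for ECT2, -0.0803 to 0.17 for ANLN, 0.0484 to 0.28 for CDC20, -0.15 to 0.15 for UBE2C, -0.0352 to 0.24 for TOP2A, -0.35 to 0.00829 for NCAPG and -0.82 to -0.34 for MKI67. For KIF20B the range was -0.22 to 0.32. GADD45B lost its call in 6 settings, and NCCRP1 in 3, those with 1 mock clone left out (adjusted p 0.0507 to 0.0626). Depth is an estimate, each clone is a single library, and the 95% interval of the median gene reached 0.42 on the log2 scale either way.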

Other observations

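The balance between the mitosis genes and the replication genes differed between clones of the same group. The mean deviation of the 34 mitosis genes minus that of the 28 G1/S and DNA replication genes was 0.08, -0.36 and 0.55 in the NCCRP1 clones, against -0.28, -0.12 and 0.13 in the mock clones. NCCRP1 clones 6 and 17, read in the same run, held the lowest and the highest of the 6 values. This measure was chosen after seeing the data, and growth rates or cell cycle phases of the clones were not analysed here.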
